A study of Mus musculus with 5 samples.

Results

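Ifi27l2a, Ifi203, B2m, H2-K1 and H2-D1 are 5 of the 10291 genes listed in at least 1 of 4 RNA libraries of mouse CD4 T cells. Ifi27l2a and Ifi203 are interferon-inducible, and B2m, H2-K1 and H2-D1 encode chains of MHC class I molecules. The 5 genes were taken by name, and their counts were summed over the barcode columns of each library's table and scaled to the library's total (CPM). They were chosen by their measured levels and ratios in these same libraries, so every level and ratio below is a description and not a test.

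The study asked how near-infrared light changes gene expression in CD4 T cells of mice with autoimmune colitis. The cells were sorted from the colon or from a lymph node (titled mLN). Light-treated mice received 980 nm laser light (1.22 W, 80% duty, a 4 square centimetre spot) in sessions of 5 minutes, 1 session per 2 days. Each tissue was sampled with light and without it (control), which makes 4 groups of 1 library. No difference can therefore be set against a spread between replicates, and p-values were not computed. The design text names colitis for the study as a whole and does not say whether each group had it, and control mice carry no further description. Mouse strain, age, sex, the colitis model and the number of mice behind a library are not given in the sources used here.

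Type I interferons and interferon gamma bind receptors whose JAK kinases activate STAT factors, and these switch on interferon-stimulated genes through interferon-response elements. Class I molecules are among the targets: a polymorphic heavy chain (H2-K or H2-D in the mouse) pairs with the invariant light chain encoded by B2m and shows cytosolic peptides to CD8 T cells. T cells carry class I themselves and respond to interferon, and those that enter inflamed mucosa meet interferon gamma.

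RefSeq promoter sequences (GRCm38.p6, 300 bases around each start) were matched for 4 of the 5 genes. The stretches below are shown because they hold the interferon-type and NF-kappaB-type letters of the 4 promoters. Capitals mark the letters that match a motif, and each line reads 5′ to 3′ on the gene's own strand.
H2-K1: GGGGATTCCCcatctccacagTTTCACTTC
H2-D1: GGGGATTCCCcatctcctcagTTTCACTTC
B2m: catGAAACTGAAAatgGGAAAGTCCCtttg
Ifi203: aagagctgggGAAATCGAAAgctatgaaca

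The H2-K1 stretch lies at chr17:34000429-34000458 on the minus strand, 111 to 82 bases upstream of 1 of its 2 annotated starts and beginning 125 bases upstream of the other. The H2-D1 stretch lies at chr17:35262923-35262952 on the plus strand, 171 to 142 bases upstream. These 2 stretches are identical at 29 of 30 bases and differ by A18T, counted from 1 at the 5′ end of the H2-K1 stretch. The B2m stretch is at chr2:122147545-122147574 on the plus strand, 142 to 113 bases upstream. The Ifi203 stretch is at chr1:173942508-173942537 on the minus strand, 45 to 16 bases upstream of 1 of its 2 annotated starts.

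Motifs were searched on both strands, and no 2 matches shown overlap. The interferon-response core GAAANNGAAA was found in B2m and Ifi203 and is held by 3.44% of 32851 promoters. Its shorter form GAANNGAAA was found on the opposite strand in H2-K1 and H2-D1 and is held by 7.52%. The NF-kappaB-type letters GGGNNTTCCC were found in H2-K1 and H2-D1 (1.75% of promoters) and GGGNNTTTCC on the opposite strand in B2m (1.63%). The STAT-type element TTCNNNGAA, held by 8.30% of promoters, was in none of the 4 windows. GAANNGAAA and GGGNNTTTCC were added after the sequences had been seen. A match describes letters only.

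The libraries differed in depth. Total counts were 971227 in the lymph node control, 1068864 in the lymph node light, 1959296 in the colon light and 435847 in the colon control library. Within a table many genes shared a column pattern, and the barcode columns were taken to count the same molecules repeatedly. Sums were therefore also expressed as molecule-equivalents, that is the summed count divided by the columns a molecule fills. These are an estimate, since the counting step behind the deposited values is not known. In the same order the totals were then 11499, 21214, 39297 and 6180 molecule-equivalents. Exact 95% intervals were computed from molecule-equivalents, so they hold counting error and no spread between mice, and a level under 3 molecule-equivalents is called under the floor. That floor is 261 CPM in the lymph node control, 141 in the lymph node light, 76.3 in the colon light and 485 in the colon control library.

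The sorted cells were checked against 14 T-cell markers, of which 13 had a count in each library other than the colon control. There the rows of Cd3d, Cd3e, Cd3g and Cd4 repeated those of the lymph node control by column position and were left out, and 4 of the other 10 markers had a count. The T-cell marker sum was 10790 CPM in the lymph node control, 9049 in the lymph node light, 3336 in the colon light and 429 in the colon control library. The 5 member rows showed no such repeat, with correlations by position between tables from -0.0958 to 0.0943.

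**Figure D1:**
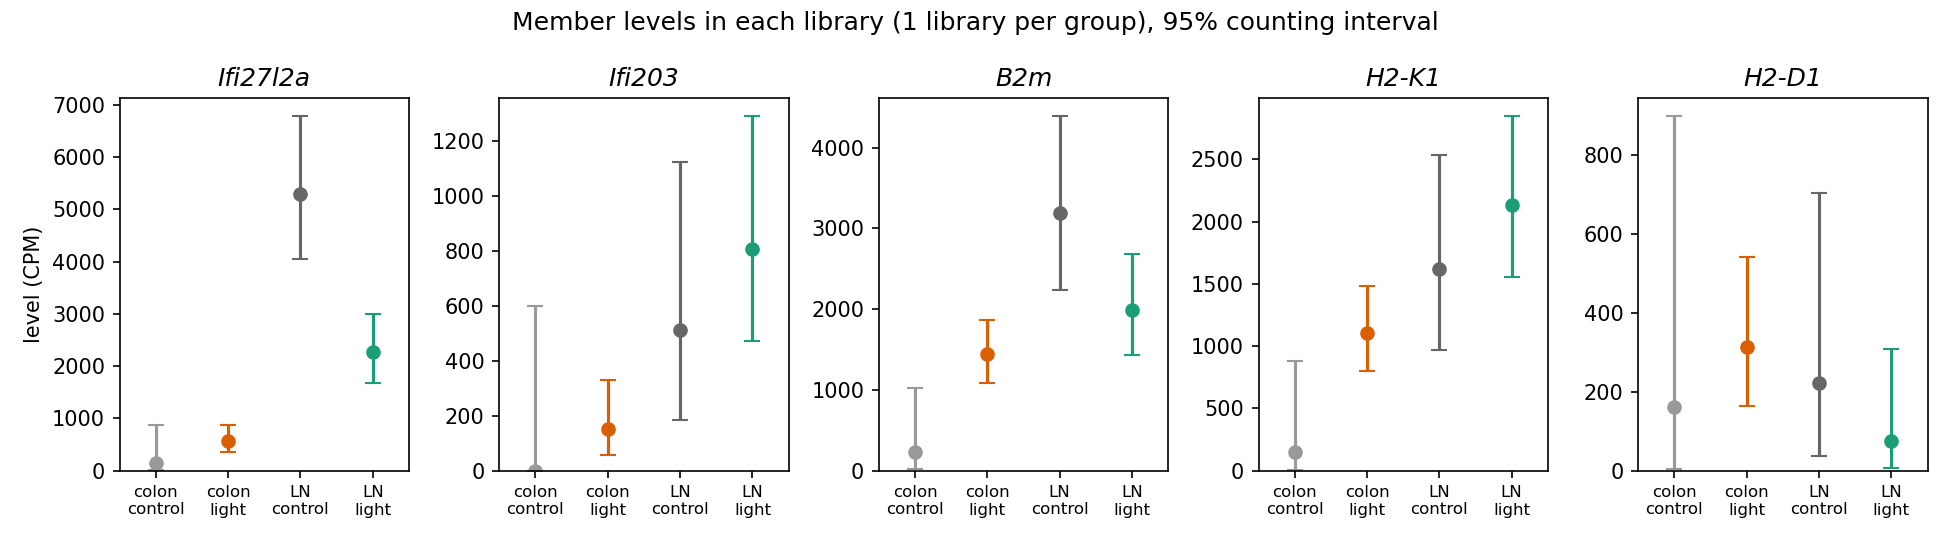
Level of each gene (CPM, linear axis from 0, a separate scale per gene) in the 4 libraries, LN standing for lymph node. Points are single libraries and bars are 95% Poisson intervals for counting error. Ifi27l2a is highest in the lymph node control (5287 CPM), and all 5 genes are under the floor in the colon control.

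Ifi27l2a encodes a small membrane protein that interferon induces, and it lies on chromosome 12 (103442167 to 103443680, minus strand, mm10). Its level was 5287 CPM (4042 to 6794) in the lymph node control, 2269 (1674 to 3007) in the lymph node light, 573 (361 to 864) in the colon light and 150 (2.95 to 881) in the colon control library. Both lymph node libraries were above both colon libraries, and the interval of the lymph node control overlapped none of the others. The lymph node control count stood for 60.8 molecule-equivalents and appeared in all 382 columns of its table, the lymph node light count for 48.1 and the colon light count for 22.5.

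Ifi203 encodes a PYHIN protein of the family that binds nucleic acids in the nucleus, and lies on chromosome 1 (173920407 to 173942672, minus strand). It was not listed in the colon control, which allows up to 597 CPM. Its level was 512 CPM (186 to 1122) in the lymph node control, 807 (471 to 1291) in the lymph node light and 152 (55.4 to 331) in the colon light library. The colon light and lymph node light intervals did not overlap, and the lymph node control interval overlapped both. The counts resolved into 6, 15 and 7 column patterns, each taken as a molecule, in these 3 libraries.

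B2m encodes the class I light chain, without which the heavy chains do not stay at the surface, and lies on chromosome 2 (122147686 to 122153083, plus strand). Its level was 3186 CPM (2239 to 4398) in the lymph node control, 1988 (1434 to 2686) in the lymph node light, 1439 (1089 to 1867) in the colon light and 231 (14.9 to 1018) in the colon control library. The lymph node control was highest, and its interval overlapped that of the lymph node light library but neither colon interval.

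H2-K1 encodes the H2-K heavy chain and lies on chromosome 17 (33996017 to 34000347, minus strand). Its level was 1617 CPM (967 to 2537) in the lymph node control, 2131 (1556 to 2850) in the lymph node light, 1104 (800 to 1485) in the colon light and 150 (2.95 to 881) in the colon control library. H2-K1 was thus highest in the lymph node light library, where B2m and Ifi27l2a were not. Neighbours in the order of levels overlapped, while the colon light and lymph node light intervals did not.

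H2-D1 encodes the H2-D heavy chain and lies on chromosome 17 (35262730 to 35267499, plus strand). Its level was 222 CPM (38.1 to 704) in the lymph node control, 74.8 (6.04 to 309) in the lymph node light, 312 (163 to 542) in the colon light and 161 (4.06 to 901) in the colon control library. It was above the floor in the colon light library alone, and all 4 intervals overlapped. The lymph node control row missed the column patterns of its own table by 0.611 of its size, so its 216 counts could not be resolved into molecules.

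All 3 class I genes together took 0.502% of counts in the lymph node control (0.382 to 0.649), 0.419% in the lymph node light (0.337 to 0.516), 0.286% in the colon light (0.235 to 0.343) and 0.0542% in the colon control library. Ifi27l2a and Ifi203 together took 0.580% (0.449 to 0.736), 0.308% (0.238 to 0.392), 0.0725% (0.0483 to 0.104) and 0.0150%, in the same order. Both lymph node libraries were above the colon light library in both sums, without overlap for the interferon-inducible pair, while the class I interval of the lymph node light library overlapped that of the colon light library.

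In the colon control each of the 4 listed genes came down to 1 column pattern. A pattern held by several genes, and not a sum of smaller ones, was taken as 1 molecule. That each gene stands for 1 molecule thus follows from this definition. Ifi27l2a and H2-K1 each had a count of 1 in 65 columns, 54 of them shared, H2-D1 in 70 columns and B2m in 100. The 4 column patterns differed from each other. Each was also the whole row of other genes, 2 for Ifi27l2a, 4 for H2-K1, 6 for H2-D1 and 7 for B2m. By the same definition 1754 of the 2366 genes of that library (74.1%) came down to a single molecule, against 45.7% to 58.9% of genes in the other 3.

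Light against control in the lymph node is the better counted of the 2 comparisons that ask what light changes. A log2 ratio of CPM was taken with a prior of 0.5 molecule-equivalents scaled to each library's total. Genes entered if they reached 20 molecule-equivalents in both libraries together, and 2-fold was used as the size limit. Of 188 such genes 5.32% were higher by 2-fold or more and 5.85% lower by as much with light, with a median of -0.16. With median-of-ratios scaling the split turned from 10 higher and 11 lower to 18 and 7. Of the members 4 were among the 188, 1 at least 2-fold lower and 0 higher.

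Ifi27l2a was the member past that limit, at -1.21 on the log2 scale (-1.80 to -0.65), 2.31-fold lower with light. Only 7 of the 188 genes had a lower ratio. It stayed lower under every other scaling tried, but under 2-fold in 3 of them: -0.97 with median-of-ratios scaling over the 4 libraries, -0.73 over the 2 compared and -0.96 scaled to T-cell marker counts. The T-cell marker sum itself was at -0.25 (-0.59 to 0.08), between the Ifi27l2a value and 0. Other marker sums went both ways, with intervals that span 0. Class II markers were at -1.64 (-3.90 to 0.09) and B and plasma cell markers at -2.44 (-10.5 to 0.46). Myeloid markers were at 0.68 (-1.01 to 2.84), plasmacytoid dendritic cell markers at 1.45 (-0.96 to 5.96) and CD8 and natural killer cell markers at 0.36 (-0.58 to 1.38). Their part in the member ratios was not tested. Ifi203 was at 0.63 (-0.76 to 2.30), and its interval spans 0.

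B2m was at -0.67 (-1.35 to -0.0007) and H2-K1 at 0.39 (-0.41 to 1.26). The light chain was thus lower and the H2-K heavy chain higher in the light library, each by less than 2-fold and with intervals that overlap. The H2-K1 interval spans 0. B2m ran from -0.67 to -0.20 over the settings tried, and without ribosomal RNA genes in the totals its interval spans 0 too (-1.28 to 0.08). H2-D1 was under the floor in both libraries, and no fold is given for it. The class I sum was at -0.26 (-0.75 to 0.24), near the median of all genes tested. Without B2m it turned to 0.26 (-0.51 to 1.08).

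**Figure D2:**
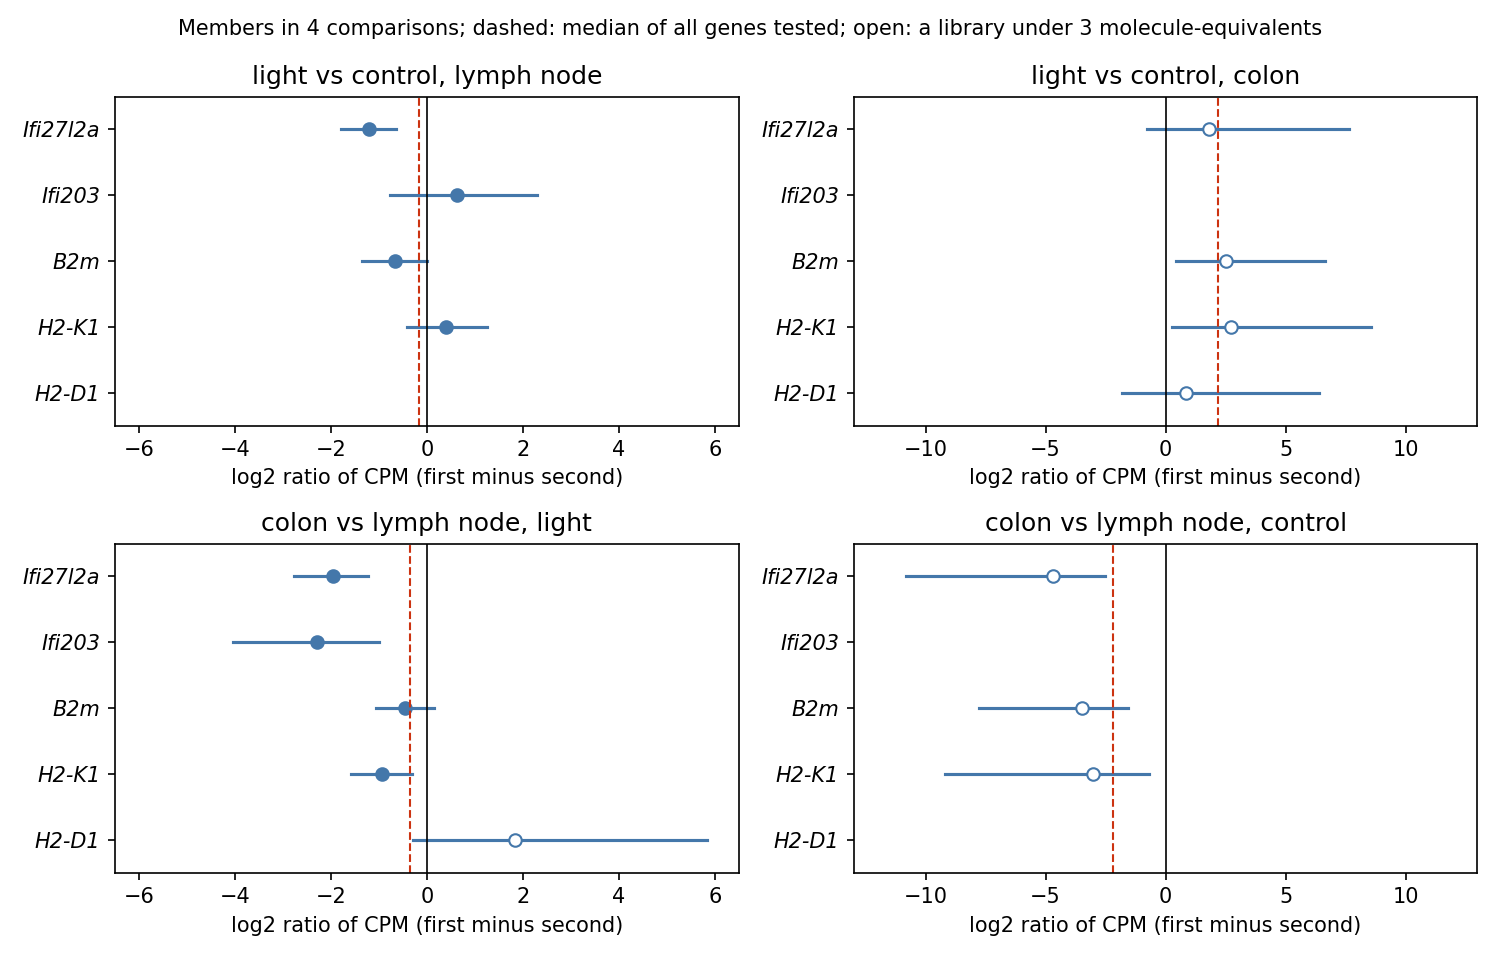
Log2 ratio of CPM of the 5 genes in the 4 comparisons, first library named minus second, with 95% counting intervals. Open points have a library under 3 molecule-equivalents, ratios with both libraries under it or with one at 0 are left out, and the dashed line is the median of all genes tested. Ifi27l2a lies left of that line at -1.21 in the lymph node, and Ifi27l2a and Ifi203 at -1.95 and -2.29 between tissues with light.

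Light against control in the colon sets a library of 39297 molecule-equivalents against one of 6180. Of 208 genes tested 75.5% were higher by 2-fold or more and 14.4% lower by as much with light, with a median of 2.18. With the deeper library scaled down to the depth of the other, 43 genes were tested, 17 were higher and 25 lower by 2-fold or more, and the median was -2.83. The medians of 2.18 and -2.83 are thus not over the same genes. Scaled down, B2m was at 2.288 (0.1011 to 6.775), H2-K1 at 2.361 (-0.1631 to 8.738) and Ifi27l2a at 1.504 (-1.585 to 7.948). The intervals of H2-K1 and Ifi27l2a span 0. This setting scales a gene and its library's total alike. A ratio then changes only through the prior and its sign cannot turn, so nothing is read from the positive signs. At that depth no member reached the filter, so none is among the 43 genes. Ifi27l2a, B2m and H2-K1 were among the 208 and at least 2-fold higher, but passed only through the deeper colon light library (22.5, 56.6 and 43.4 molecule-equivalents against 0.926, 1.43 and 0.926). A high value with light was thus a condition of passing, and nothing is read from that count. B2m was at 2.53 (0.44 to 6.63), H2-K1 at 2.71 (0.25 to 8.58) and Ifi27l2a at 1.79 (-0.76 to 7.66). Each interval includes the median of 2.18, so at this depth no member differed detectably from the other genes tested. H2-D1 did not pass the filter and had a ratio of 0.87 (-1.80 to 6.38). Ifi203 had a count in the colon light library alone, and the floor of the colon control is above that level, so no fold is given. Cell type markers moved too. Class II markers were at 219 CPM in the control (1 of 7 detected) and 2146 with light (7 of 7), a log2 ratio of 3.17 (1.06 to 7.43). Myeloid markers were at 786 (4 of 12) and 2750 CPM (6 of 12), a ratio of 1.78 (0.52 to 3.49). The T-cell marker sum, without the repeated rows, was at 2.57 (0.95 to 5.13). Each of these intervals includes the median of 2.18. Marker sums were lower with light for B and plasma cells, at -3.15 (-11.05 to 0.16), and plasmacytoid dendritic cells, at -0.44 (-2.89 to 3.08), with intervals that span 0. The T-cell marker sum of 429 CPM and the class II sum of 219 CPM in the colon control are under the floor and below the myeloid sum. The part of these markers in the member ratios was not tested.

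The light ratios of Ifi27l2a and B2m had opposite signs in the 2 tissues, negative in the lymph node and positive in the colon. The colon values rest on the single control molecules described above, and the difference between tissues was not tested.

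Colon against lymph node among light-treated mice compares the 2 deepest libraries. Of 304 genes tested 13.5% were higher by 2-fold or more and 19.4% lower by as much in the colon, with a median of -0.34. Without ribosomal RNA genes in the totals the split turned from 41 higher and 59 lower to 55 and 29. Of the members 4 were among the 304, 2 at least 2-fold lower and 0 higher. These were Ifi203 at -2.29 (-4.05 to -1.0), 4.90-fold lower, and Ifi27l2a at -1.95 (-2.78 to -1.23), 3.88-fold lower in the colon. Only 3 genes had a lower ratio than Ifi203 and 6 a lower one than Ifi27l2a. Ifi203 passed the filter with 5.96 molecule-equivalents in the colon and 17.1 in the lymph node library. At its colon level in both libraries it would not have passed. Nothing is therefore read from the place of Ifi203 in that count or order.

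H2-K1 was at -0.94 (-1.58 to -0.32) and B2m at -0.46 (-1.07 to 0.14), both within 2-fold, with the median of all genes inside both intervals. H2-D1 was the one member with a higher level in the colon, at 1.85 (-0.28 to 5.83), from 12.3 against 1.59 molecule-equivalents. It did not pass the filter, and its interval spans 0. The class I sum was at -0.55 (-0.97 to -0.14) and the interferon-inducible pair at -2.06 (-2.78 to -1.43), and these 2 intervals do not overlap.

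The make-up of the 2 libraries moved with these ratios. The T-cell marker sum was at -1.44 (-1.77 to -1.11), with 5 of 6 markers that passed the filter lower in the colon by 2-fold or more. Markers of class II antigen-presenting cells summed to 2146 CPM in the colon light library, with 7 of 7 detected, against 200 CPM with 4 of 7 in the lymph node light library. The corresponding sums for 12 myeloid markers were 2750 CPM with 6 detected against 564 CPM with 5. Genes of ribosomal RNA and Gm12374 took 38.0% of counts against 19.4%. In bulk RNA fewer cells of a type and less RNA per cell cannot be told apart, and the part of these shifts in the member ratios was not tested.

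Scaled to T-cell marker counts in place of total counts, the same ratios were -0.54 (-1.34 to 0.20) for Ifi27l2a and -0.93 (-2.61 to 0.44) for Ifi203, neither past 2-fold. B2m and H2-K1 turned to 0.96 (0.37 to 1.58) and 0.49 (-0.14 to 1.12), with the median of all genes then at 1.07. This scaling shifts every gene and the median alike, so a gene's place relative to the median cannot change with it.

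Colon against lymph node among controls had 89 genes tested, of which 29.2% were higher by 2-fold or more and 67.4% lower by as much in the colon, with a median of -2.18. Ifi27l2a and B2m were among them, having passed only through the deeper lymph node library (60.8 and 36.6 molecule-equivalents against 0.926 and 1.43), and nothing is read from their count. Ifi27l2a was at -4.70 (-10.83 to -2.54) and B2m at -3.50 (-7.79 to -1.55). The B2m interval includes the median, and that of Ifi27l2a lies below it. Both genes are under the floor in the colon control and passed through the library where they are high. Nothing is therefore read from their place against the median either. H2-K1, under the filter, was at -3.02 (-9.17 to -0.70). Ifi203 was not listed in the colon control, whose upper limit of 597 CPM is above the 512 CPM of the lymph node control, so no direction is given. H2-D1 was under the floor in both libraries. This comparison shares a library with each light comparison, so the 4 sets of values are not independent of each other.

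The balance between class I chains was compared across libraries as a share of summed counts, which does not depend on the total used for scaling. H2-D1 made up 12.1% of H2-D1 plus H2-K1 counts in the lymph node control (2.13 to 33.6), 3.39% in the lymph node light (0.275 to 13.3), 22.1% in the colon light (12.0 to 35.2) and 51.9% in the colon control library (1.29 to 99.1). The share was higher in the colon light than in the lymph node light library, with intervals that overlap at their ends. B2m made up 66.3% of B2m plus H2-K1 counts in the lymph node control (52.4 to 78.5), 48.3% in the lymph node light (37.4 to 59.2) and 56.6% in the colon light library (46.3 to 66.5). All 3 of those intervals overlap.

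**Figure D3:**
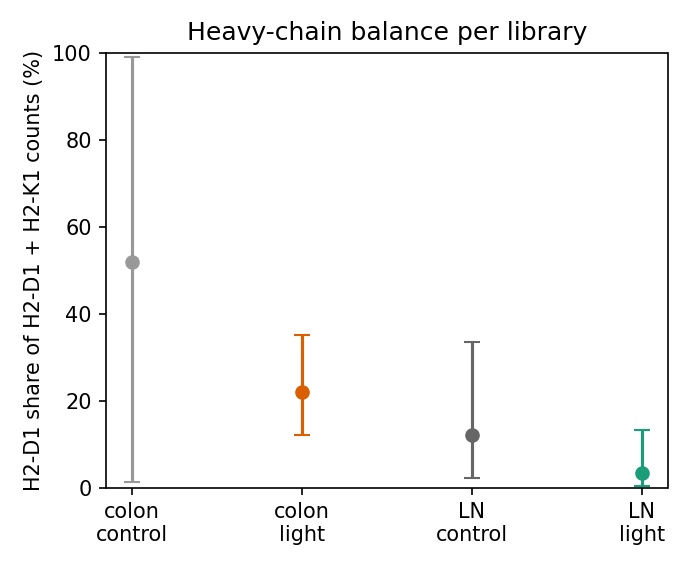
Share of H2-D1 in the summed counts of H2-D1 and H2-K1 (percent, axis from 0 to 100) in each library, LN standing for lymph node, with exact 95% binomial intervals for counting error. The share is 22.1% in the colon light and 3.39% in the lymph node light library, and the colon control interval covers nearly the whole axis.

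Counting at the 3′ end could mix similar genes. Of the 50-base words in the last 500 annotated bases, 0.443% of those of H2-K1 occurred in another gene, which was H2-D1. For H2-D1 the figure was 9.53%, spread over 80 other genes. For Ifi27l2a it was 0.483% (Ifi27l2b), and for Ifi203 and B2m 0. The reads were aligned to mm10, whose class I alleles are those of one strain, and what another allele would do to the H2-K1 and H2-D1 counts was not tested.

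The interferon-inducible pathway was read from a list of 78 genes, Ifi27l2a and Ifi203 among them. Of these, 70 had a count in some library and 5 in the colon control. For light against control in the lymph node 6 passed the filter, 0 at least 2-fold higher and 1 lower, which was Ifi27l2a itself, and their median was -0.18 against -0.16 over all genes. Ly6a, a surface protein of activated T cells that interferon induces, was at -0.36 (-0.96 to 0.24), from 3643 CPM in the control and 2825 with light. Ly6e, of the same family, was at -0.31 (-1.38 to 0.79). Sp100, a nuclear body protein, was at -0.05 (-1.44 to 1.44) and Shisa5 at 0.40 (-0.92 to 1.93). Ifitm3, which hinders entry of viruses, did not pass and was at 0.91 (-0.92 to 3.44). All 5 intervals include 0, and all 5 overlap the Ifi27l2a interval of -1.80 to -0.65.

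Between tissues with light, 6 genes of the list passed and 4 of them were lower in the colon by 2-fold or more, with a median of -1.82 against -0.34, where 19.4% of the 304 genes were that much lower. Beside Ifi27l2a and Ifi203 these were Ly6a at -2.06 (-2.81 to -1.40), from 665 CPM in the colon and 2825 in the lymph node, and Ly6e at -1.68 (-2.93 to -0.61). Shisa5 at -0.59 (-1.60 to 0.40) and Ifitm3 at -0.76 (-2.10 to 0.53) were within 2-fold. Sp100 did not pass and was at -2.48 (-4.74 to -0.98). The list median of -1.82 and the count of 4 include Ifi27l2a and Ifi203. Both were chosen by their ratios in these libraries, so nothing is read from that median or count. Over the T-cell markers that passed in the same pair of libraries the median was -1.64.

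In the 2 comparisons with the colon control the list cannot be read from its counts. For light in the colon Ifi27l2a, Ly6a and Shisa5 passed, with 0.926, 0 and 0.527 molecule-equivalents in the control, so they passed only through the light library. Between tissues without light Ifi27l2a and Ly6a passed, with 0.926 and 0 in the colon against 60.8 and 41.9 in the lymph node, and so only through the lymph node library.

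Of the 16 genes of the PYHIN family, to which Ifi203 belongs, 11 had a count in some library and 0 in the colon control. Mndal, another gene of the family, was at 686 CPM in the lymph node control, 467 in the lymph node light and 180 in the colon light library. It passed the filter in neither comparison: light against control in the lymph node gave -0.53 (-2.06 to 1.0) and colon against lymph node with light -1.30 (-3.00 to 0.16). Both Mndal intervals span 0.

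The list of interferon signalling held 19 genes, all with a count in some library. Ifng, which encodes interferon gamma, was at 919 CPM in the lymph node control, 474 in the lymph node light and 440 in the colon light library. In the colon control it was at 357 CPM, under the floor (2.21 molecule-equivalents). Its light ratio in the lymph node was -0.91 (-2.36 to 0.44), and it was the only gene of the list to pass there. Between tissues with light 3 passed and 0 reached 2-fold in either direction. These were Ifng at -0.10 (-1.31 to 1.18), the receptor chain gene Ifngr1 at 0.46 (-0.75 to 1.84) and the kinase gene Jak1 at 0.13 (-1.09 to 1.47). Their median of 0.13 compares with -0.34 over all genes. Ifngr1 and Jak1 were not detected in the colon control.

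Class I heavy chains and their relatives were 21 genes, of which 10 had a count in some library. H2-Q7, a Qa-region class I gene with near-identical neighbours whose reads could be split between them, was at 586 CPM in the lymph node control, 653 in the lymph node light and 516 in the colon light library. B2m, H2-K1 and H2-Q7 passed in both comparisons of deeper libraries, and 0 of these 3 reached 2-fold in either. Their median was 0.15 for light in the lymph node and -0.46 for colon against lymph node with light.

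Of the 15 genes that supply and load class I peptides, all had a count in some library and 2 in the colon control. Psmb8, a catalytic subunit of the immunoproteasome, was at 0.29 (-1.09 to 1.86) for light in the lymph node and at -0.95 (-2.12 to 0.16) for colon against lymph node with light. Psme1, a subunit of the proteasome activator PA28, was at -0.45 (-1.82 to 0.94) and 0.21 (-0.81 to 1.33). Pdia3, a disulphide isomerase of the peptide-loading complex, did not pass, at 0.68 (-1.34 to 3.42) and -0.73 (-2.29 to 0.76). In each of these comparisons 2 genes of the list passed and 0 reached 2-fold.

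**Figure D4:**
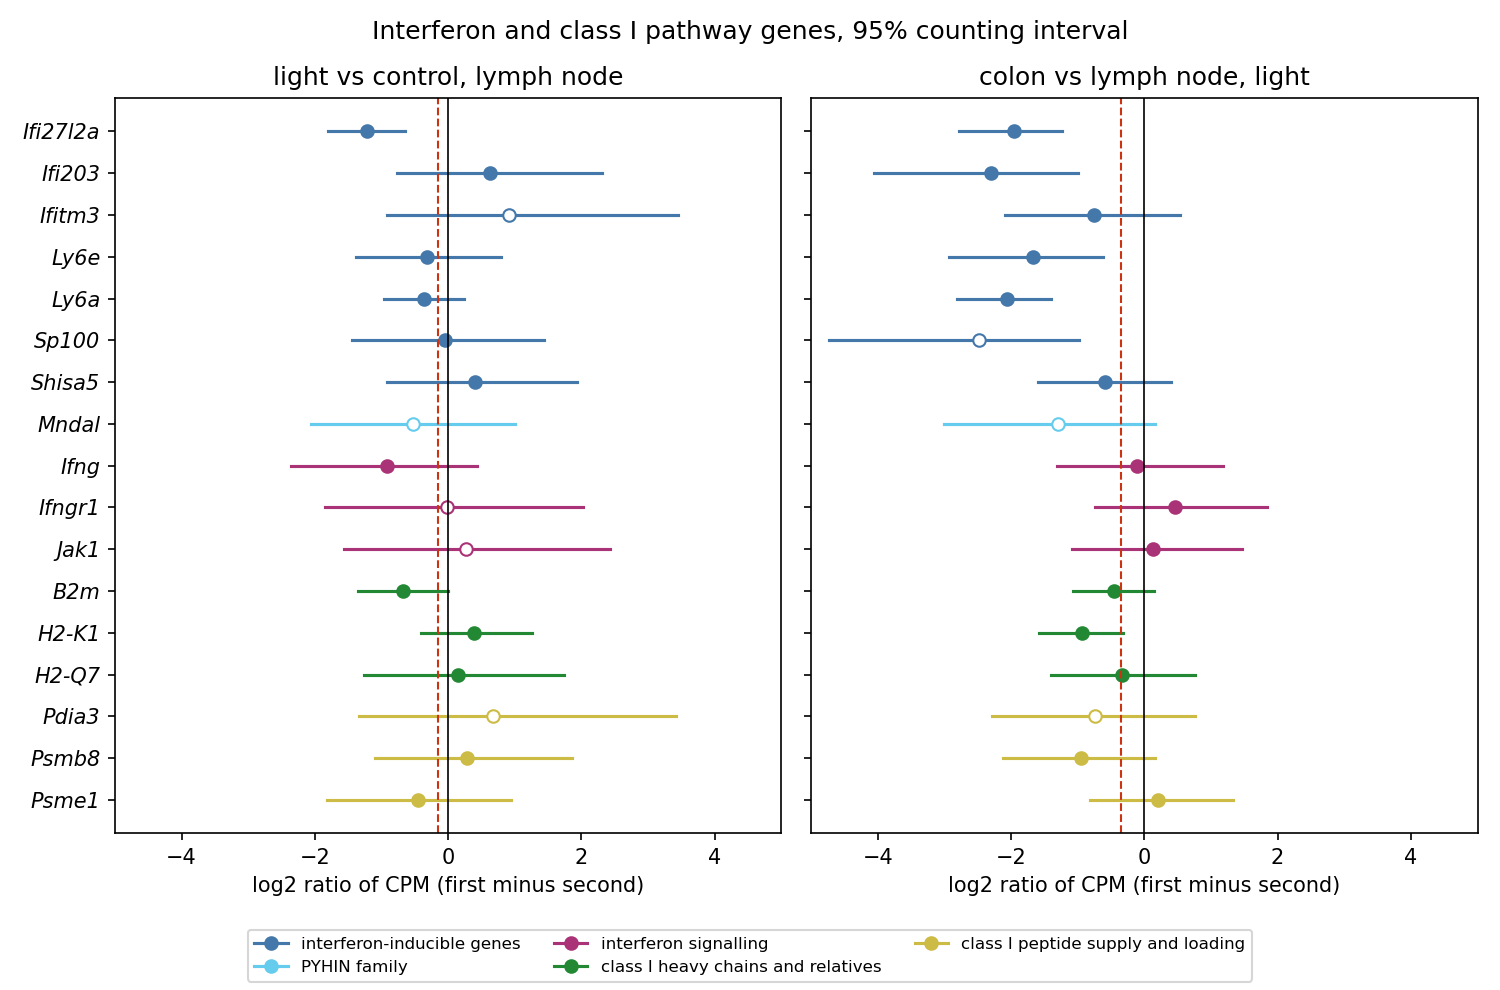
Log2 ratio of CPM with 95% counting intervals for the 17 genes of the interferon and class I lists that reached 20 molecule-equivalents in the 4 libraries together. Left: light minus control in the lymph node. Right: colon minus lymph node with light. Open points did not pass the filter in that comparison and the dashed line is the median of all genes tested. On the right Ifi27l2a, Ifi203, Ly6a and Ly6e lie below -1, as do the open points of Sp100 and Mndal. All other genes plotted there lie within 2-fold, Shisa5 and Ifitm3 among them. H2-D1, at 1.85 in that comparison, did not reach 20 molecule-equivalents and is not plotted.

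The genes most like each member were taken by the root mean square distance between log2 profiles over the 4 libraries, each centred on its mean. For Ifi27l2a these were Tspo (distance 0.30), Gapdh and Gmfg, and for Ifi203 Trac (0.22), Ttc39c and Rgs19. Tspo had 1278 CPM in the lymph node control, 461 in the lymph node light, 118 in the colon light and 0 in the colon control library, the same order as Ifi27l2a. For B2m they were Rps24 (0.12), Rps26 and Hmgb2, for H2-K1 Arl6ip1 (0.028) and Lgals1 among others, and for H2-D1 Tnfrsf4 (0.13), Sf3b2 and Rpl9. No other member and no gene of the interferon or class I lists was among the 15 genes so chosen, and Trac is one of the T-cell markers. Each member had 386 candidates (387 for H2-D1), and only 17 genes of those lists had enough counts to be one. H2-D1 itself had too few. Nothing is therefore read from the absence of list genes. Leaving out the colon control changed the lists, with 5 of the 15 genes named again.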

How the data were processed

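Per the labels' protocols, poly(A) RNA was captured with oligo-dT beads and reverse transcribed with a probe carrying a sample barcode and a molecular identifier. STAR 2.5.1a, FastQC and mm10 are named in the submitters' processing notes. The tool that counted reads was not given in the sources used here, nor its settings. The deposited values are whole-number counts per gene and barcode column. The lymph node tables end in an unnamed line holding 50.0% of their counts, which was left out.

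Rows were written as sums of column patterns held by several genes (non-negative least squares). This was exact for 92.8%, 93.3%, 92.7% and 96.7% of genes, which held 42.7%, 39.2%, 55.9% and 62.9% of counts, in the 4 libraries (colon without and with light, then lymph node without and with light). A gene's summed count was divided by the size-weighted columns per molecule (70.2, 49.9, 84.5 and 50.4, in that order). Columns are thus no replicates. Rows that repeated between tables (correlation by position above 0.5, misfit above 0.4) were left out: Foxp3 in every library, and in the colon control also Cd4, Cd3d, Cd3e and Cd3g. A barcode sheet without a group was not used: 0 of its 16 barcodes are columns of the colon control table.

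Level intervals are Poisson and ratio and share intervals Clopper-Pearson, at 95%. Coordinates are from GENCODE M21. The members and lists were chosen with earlier results of these data known. Named genes were the members, list genes reaching 20 molecule-equivalents over the 4 libraries, and the 3 genes most like each member. Tspo was the only one of the last given by library. One of the genes most like H2-K1 is not reported here. Scaling to T-cell marker counts was added after seeing the data. Median-of-ratios scaling was first computed over the 2 libraries compared, and the form over the 4 libraries was chosen after those values had been seen, so both are given. Software was Python 3.11.15 with scipy 1.17.1 and numpy 2.4.6, pandas 2.3.3 for tables and, for figures, matplotlib 3.10.9. The scripts were tested on simulated data.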

Additional observations from a re-analysis of the deposited data

Results flagged for a closer look

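The light ratio of Ifi27l2a had opposite signs in the 2 tissues, at -1.21 (-1.80 to -0.65) in the lymph node and 1.79 (-0.76 to 7.66) in the colon, a difference of 3.00 on the log2 scale. B2m also had opposite signs, at -0.67 (-1.35 to -0.0007) and 2.53 (0.44 to 6.63), a difference of 3.21. Neither difference was tested. In the colon control each gene rests on 1 column pattern, taken as 1 molecule. The median of all genes tested was -0.16 in the lymph node and 2.18 in the colon. With the deeper library scaled down the colon median was -2.83, over a smaller set of 43 genes. At that setting Ifi27l2a was at 1.504 (-1.585 to 7.948) and B2m at 2.288 (0.1011 to 6.775) in the colon. Neither gene reached the filter there, so neither is among the 43 genes behind that median. The scaling cannot turn the sign of a ratio, so nothing is read from the positive signs.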

How the results depend on the processing

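No paired analysis was possible because each group has 1 library and no replicate number, and for the same reason no replicate could be left out. Of 136 alternative values of the sums and counts 98 stayed within counting error or within 1.5 times, and 38 moved. Of 141 alternative values for single members and their most similar genes 136 stayed and 5 moved. For a member, staying means lying inside its main counting interval, which is wide in comparisons with the colon control. For light in the lymph node, Ifi27l2a at -0.73 and Ifi203 at 1.08 (median-of-ratios over the 2 libraries compared) thus stayed, though both crossed the 2-fold limit. The tally is therefore no measure of robustness. The cause of a move was not tested, except where fewer genes were tested.

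For light in the lymph node, the class I sum without B2m was 0.26 and the pair sum without Ifi27l2a 0.63. For colon against lymph node with light, the class I sum was -0.012 with median-of-ratios over the 2 libraries compared and 0.88 scaled to T-cell marker counts, where the pair sum was -0.64. The median of all genes there ran from -0.34 with total counts to 0.03 without ribosomal RNA genes in the totals and 1.07 scaled to T-cell markers. B2m ran from -0.48 to 0.96 and H2-K1 from -0.94 to 0.49.

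Counts of genes at least 2-fold higher and lower moved as follows. For light in the lymph node (10 and 11) they were 18 and 7 with median-of-ratios over 4 libraries and also scaled to T-cell markers, 32 and 2 over the 2 libraries compared, and 5 and 6 with the deeper library scaled down. For colon against lymph node with light (41 and 59) the lower genes were 38 with median-of-ratios over 4 libraries and 29 without ribosomal RNA genes, both were 64 and 22 over the 2 libraries compared and 161 and 2 scaled to T-cell markers, and the higher genes 16 with the deeper library scaled down. For light in the colon that last setting tested 43 genes in place of 208 and gave 17 higher and 25 lower (157 and 30), with a median of -2.83 against 2.18, and it gave 29 lower for colon against lymph node among controls (60).
Without the filter the counts were 2469 and 1688 for light in the lymph node, 3645 and 1805 for light in the colon, 2351 and 3038 for colon against lymph node with light, and 1730 and 2887 among controls. With at least 50 molecule-equivalents they were 2 and 4, 53 and 13, 8 and 22, and 9 and 13. Columns shared by 3 tables gave no value for comparisons with the colon control, which shares at most 5 barcodes with another table.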
